A study of Mus musculus with 3 samples.

Results

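Foxp3-expressing regulatory T cells were followed through 3 single-cell libraries of CD45+ cells, the leukocytes, sorted from mouse colon. A droplet barcode was taken as a member when it had at least 200 detected genes and at most 20% mitochondrial UMIs (counted RNA molecules), at least 1 UMI of Foxp3 and at least 1 of the CD3 chain genes Cd3d, Cd3e and Cd3g. It also had to hold 0 UMIs of the B-cell genes Cd79a and Ms4a1 and of the type 17 cytokine genes Il17a and Il17f. The members were thus chosen by measured UMIs of Foxp3, the CD3 chain genes, Cd79a, Ms4a1, Il17a and Il17f, so the share of members in a library rests on those genes and is a description. The rule found 342 members among the 16690 barcodes that passed the quality limits, of 22248 deposited. They were 55 of 6004 in the healthy library (C), 213 of 6143 in the library from colon with low-grade intraepithelial neoplasia (T1), and 74 of 4543 in the library from colon with high-grade intraepithelial neoplasia (T3). All mice were C57BL/6, and the labels of all 3 libraries give an age of 6 to 8 weeks at the start of the model. T1 and T3 came from mice given azoxymethane (AOM, a carcinogen) at 12 mg/kg and then 3 cycles of 2.5% dextran sodium sulfate (DSS, which injures the colon lining), each of 7 days followed by 14 days of water. C came from healthy colon, for which no AOM or DSS is named, so neoplasia and the treatment cannot be told apart in a comparison with C. The labels give neither a sampling time nor how many mice made up a library, and each group is 1 library. No difference between libraries therefore has a replicate check, no test was made, and every interval in brackets is a 95% interval that covers counting error only.

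Regulatory T cells are CD4 T cells that hold other immune cells in check, and they depend on the transcription factor Foxp3. They take up IL-2 through a high-affinity receptor, carry the inhibitory receptor CTLA-4, and can act through the cytokine IL-10, through inhibitory receptors such as LAG-3, and through granzyme B. In the mouse colon some arise in response to gut bacteria and make IL-10, while another population carries Helios (gene Ikzf2), GATA3 and the IL-33 receptor ST2 (gene Il1rl1) and makes the repair factor amphiregulin (gene Areg).

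The members held a median of 4805 UMIs in C, 5769 in T1 and 4707.5 in T3, and their summed UMIs came to 318819, 1279126 and 358059. Levels are given as CPM, the part of those summed UMIs that a gene took, scaled to counts per 1e6, and compare libraries gene by gene. No doublet caller was run. Any cell with Cd79a or Ms4a1 UMIs was kept out by the rule, which removed 8 Foxp3+ CD3+ barcodes in C, 95 in T1 and 14 in T3, so T1 lost the most by it. The condition on Il17a and Il17f removed a further 5 in C, 21 in T1 and 2 in T3. RNA of other cells remained. Immunoglobulin genes made up 0.0979% of member UMIs in C, 0.390% in T1 and 0.0478% in T3, and 1 T1 member held 50.5% of those of T1. Haemoglobin genes made up 0.398% of member UMIs in T3, where 56 of 74 members held at least 1 and 1 member held 71.6% of the total, against 2 UMIs in T1 and 1 UMI in C. Xist, the transcript of the inactive X chromosome in females, was found in 51 of 55, 202 of 213 and 67 of 74 members of C, T1 and T3, although the labels call the mice male. Between 35 and 39 deposited barcode sequences were shared by each pair of libraries, and 0 of them were members in both.

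Foxp3+ members were the most frequent in T1. They made up 12.2% [10.7, 13.8] of CD3+ barcodes in T1 against 2.97% [2.25, 3.85] in C, and 3.48% [2.75, 4.35] in T3 against the same C. The interval of T1 did not overlap those of C and T3, whereas those of T3 and C overlapped. Since the rule needs a detected UMI and the libraries differ in depth, the CD3+ barcodes were also drawn down to 1000 UMIs each. The shares were then 5.0% in T1 (71 of 1421) against 1.64% in C (26 of 1585), and 1.82% in T3 (26 of 1428). This left out 69, 51 and 347 shallower CD3+ barcodes of C, T1 and T3. As a background, barcodes with Cd79a and Ms4a1 but without CD3 held a Foxp3 UMI in 12 of 2458 in T1, 0 of 631 in T3 and 1 of 2319 in C. The plot of these shares shows T1 apart from C and T3 at both depths.

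**Figure D1:**
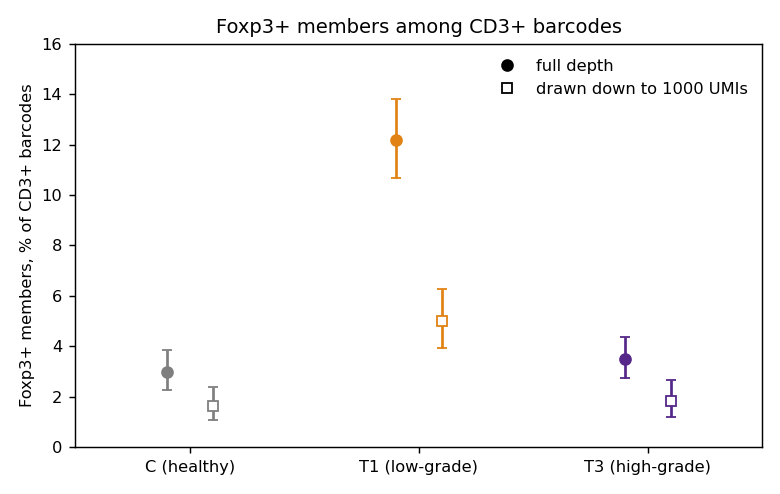
Percent of CD3+ barcodes that met the Foxp3 rule in C, T1 and T3; filled circles are at full depth, open squares after drawing each CD3+ barcode down to 1000 UMIs, and bars are exact 95% binomial intervals. T1 lies at 12.2% and 5.0%, above C (2.97% and 1.64%) and T3 (3.48% and 1.82%).

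The values on either side of the Foxp3 threshold are a description, since Foxp3 chose the members. Exactly 1 Foxp3 UMI was found in 23 of the 55 members of C, 70 of 213 in T1 and 30 of 74 in T3. Ctla4 in members with exactly 1 UMI reached 1474, 1637 and 1105 CPM (C, T1, T3), beside 1439, 2083 and 1182 CPM in those with 2 or more. Just outside, in CD3+ barcodes with Cd4 but no Foxp3 UMI, it reached 259, 539 and 220 CPM. A further 24, 101 and 34 CD3+ barcodes of C, T1 and T3 held Il2ra and Ctla4 but no Foxp3 UMI and were not members. In them Il10 stood at 113 CPM in C and 247 CPM in T1 and was at 0 UMIs in T3.

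The members carried the genes that regulatory T cells are known for. They were set against the other CD3+ barcodes of the same library, which lacked Foxp3 (1796 in C, 1536 in T1 and 2050 in T3). Of these, 355 in C, 562 in T1 and 549 in T3 held a Cd4 UMI, so they were not CD4 T cells alone. A gene was called higher or lower when it had at least 30 UMIs over both groups, lay at least 2-fold apart in CPM and had an interval that excluded no difference. Il2ra, the alpha chain of the IL-2 receptor, had log2 ratios of members over others of 3.12 in T1, 4.83 in T3 and 4.07 in C. Ctla4 was higher by 2.68, 3.09 and 3.79 in the same order, and Tnfrsf4, the costimulatory receptor OX40, by 2.93, 4.31 and 4.28. Of the measured genes of a regulatory T-cell identity list, 15 of 18 were higher in T1, where 7.80% of all measured genes were. In T3 16 of 18 were higher against 10.5% of all genes, and in C 11 of 16 against 6.30%. None of the list was lower in any library, where 3.86% (T1), 2.32% (T3) and 2.10% (C) of all genes were. Ikzf2 was not called in C against all other CD3+ barcodes, with a log2 ratio of 0.35, against 1.34 in T1 and 3.94 in T3. In C, the other CD3+ barcodes with a Cd4 UMI held Ikzf2 at 174 CPM. The C members held it at 518 CPM with exactly 1 Foxp3 UMI and at 589 CPM with 2 or more. Genes of CD8, gamma-delta and cytotoxic T cells were lower in all 9 measured cases in T1, 6 of 8 in T3 and all 9 in C.

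A set of 220 genes, 2.52% of those measured, was higher in members than in other CD3+ barcodes in all 3 libraries. After the exclusions of the naming rule 206 genes remained. The 10 of these with the largest smallest ratio were Ccr1, Il10, Neb, Lamc1, Areg, Sdc4, Il2ra, Ccr4, Ltb4r1 and Dusp4. Ccr1 and Ccr4 encode chemokine receptors and Ltb4r1 a receptor for the lipid attractant leukotriene B4. Lamc1, a laminin chain of the basement membrane, had log2 ratios of members over others of 3.81 in T1, 4.60 in T3 and 3.53 in C. Neb, the giant filament protein nebulin of skeletal muscle, was higher by 3.69, 4.81 and 5.93 and was found in 97 of 213, 18 of 74 and 19 of 55 members of T1, T3 and C. Areg was higher by 3.37, 4.95 and 3.70. UMIs of the gene lists of other leukocytes were found in the members, which does not by itself show that they came from those cells. The B-cell list summed to 4294 CPM in T1 members against 2142 CPM in other CD3+ barcodes, with a UMI in 211 of 213 members, to 852 against 939 CPM in T3 and to 991 against 1671 CPM in C. The plasma cell list summed to 778 CPM in members of T1, 123 CPM in T3 and 370 CPM in C. The phagocyte list summed to 245 CPM in T1 members against 348 CPM in others, 145 against 84.9 CPM in T3 and 235 against 598 CPM in C, and a UMI of it was found in 121 of 213, 34 of 74 and 29 of 55 members. Its genes C1qa, C1qb and Adgre1 were at 0 UMIs in the members of all 3 libraries, and Lyz2 and Csf1r were at 0 in those of C as well. The gamma-delta T-cell gene Trdc was at 0 in C and T3. The neutrophil list summed to 0 CPM in C, 52.4 CPM in T1 (1 member, Il1b alone) and 115 CPM in T3 (20 members).

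In T1 the members had lower levels of some genes of resting cells, of the immediate early response and of heat shock than those of C, and higher Lag3. Some B-cell genes were higher as well, but none of them was called without members holding other lineage markers. Over all 5364 measured genes, 142 (2.65%) were higher and 129 (2.40%) lower, with a median log2 ratio of 0.02. Klf2, a transcription factor of quiescent T cells that promotes exit from tissue, stood at 255 CPM in T1 against 1524 CPM in C, a log2 ratio of -2.58 [-2.79, -2.38]. Bcl2, a survival factor, stood at 20.3 CPM in T1 against 110 CPM in C, or -2.43 [-3.22, -1.66]. In the list of resting and lymphoid genes 4 of 13 measured genes were lower and 1, Satb1, was higher, with a median of -0.40. In the other CD3+ barcodes 1.39% of 10538 measured genes were higher and 3.5% lower in T1 than in C. Klf2 and Bcl2 were also lower in them, by -1.0 and -0.95, and the difference in members exceeded that by -1.58 [-1.79, -1.37] for Klf2 and -1.48 [-2.22, -0.74] for Bcl2.

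Immediate early genes, which are switched on within minutes of stimulation or of handling, were lower in 7 of 15 measured cases in T1 and higher in none. Jun, a subunit of the transcription factor AP-1, had 766 CPM in T1 against 2428 CPM in C, a log2 ratio of -1.66 [-1.80, -1.53]. Fos, its partner, had 400 CPM in T1 against 1029 CPM in C, or -1.36 [-1.56, -1.16]. Heat shock genes were lower in 4 of 11, among them the chaperone gene Hspa1b at 609 CPM in T1 against 2679 CPM in C. Other CD3+ barcodes of T1 showed lower levels of the same kind, with a log2 ratio of -1.55 for Jun and -1.12 for Hspa1b. One lower call of the immediate early list, Ier3, rested on 1 cell of C that held all 40 of its UMIs there.

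The inhibitory receptor gene Lag3 stood at 400 CPM in T1 against 166 CPM in C, a log2 ratio of 1.27 [0.86, 1.70], and was found in 102 of 213 T1 members and 20 of 55 C members. It was the only gene called higher among 13 measured suppressive effectors, and none was lower. Il10 stood at 553 CPM in T1 against 759 CPM in C, a log2 ratio of -0.46 [-0.67, -0.24] that was not called, whereas in other CD3+ barcodes it was higher in T1 by 2.67. Gzmb, granzyme B, stood at 1035 CPM in T1 against 812 CPM in C and Ctla4 at 1964 against 1452 CPM, and neither was called. Among 25 measured genes of effector and tissue regulatory T cells, 3 were higher and none lower. These were Prdm1, which encodes the effector factor Blimp-1 (82.1 CPM in T1 against 25.1 CPM in C, log2 ratio 1.71), Rora, a nuclear receptor (568 against 270 CPM, 1.08), and Il1rl1 (105 against 50.2 CPM, 1.06). By cells Il1rl1 was found in similar shares, 36 of 213 T1 members (16.9%) and 9 of 55 C members (16.4%).

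Barcodes with Il17a or Il17f UMIs were left out of the members and of the other CD3+ barcodes, which limits what the type 17 list can show. In that list 3 of 10 measured genes were higher in T1 and none was lower, with a median of 0.65, beside 6 of 12 in other CD3+ barcodes. They were Il1r1, Il22, with 60.4% of its T1 UMIs in 1 cell, and Stat3, a signal transducer of IL-6. Stat3 had 242 CPM in T1 against 94.1 CPM in C, a log2 ratio of 1.36 [0.82, 1.96], Socs3, an inhibitor of cytokine signalling, 130 against 50.2 CPM, or 1.37, and Stat5a, a signal transducer of IL-2, 68.8 against 28.2 CPM, or 1.29. Over the IL-2 and STAT5 list 2 of 14 measured genes were higher and 1 lower, with a median of 0.02. Hilpda, a lipid droplet gene that responds to low oxygen, had 235 against 91.0 CPM, or 1.37. Over the hypoxia and glycolysis list 2 of 14 measured genes were higher and none lower, with a median of 0.36. B-cell genes were higher in 5 of 7 measured cases, with a median of 1.85 and a summed level of 4294 CPM in T1 members against 991 CPM in those of C. The 5 were Igkc, Cd74, H2-Aa, H2-Ab1 and H2-Eb1. Without members holding other lineage markers none of the 5 was called, with 0.97 for Igkc, 0.41 for Cd74, -0.066 for H2-Aa, -0.16 for H2-Ab1 and -0.021 for H2-Eb1, and H2-Aa came to -0.19 without members rich in immunoglobulin or haemoglobin. Their part in the other results was not tested. With the Foxp3+ CD3+ barcodes that held Cd79a or Ms4a1 kept, the ratios of T1 over C for Il1rl1 (0.73) and Rora (0.95) no longer met the rule. None of the 17 measured identity genes was called in either direction.

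**Figure D2:**
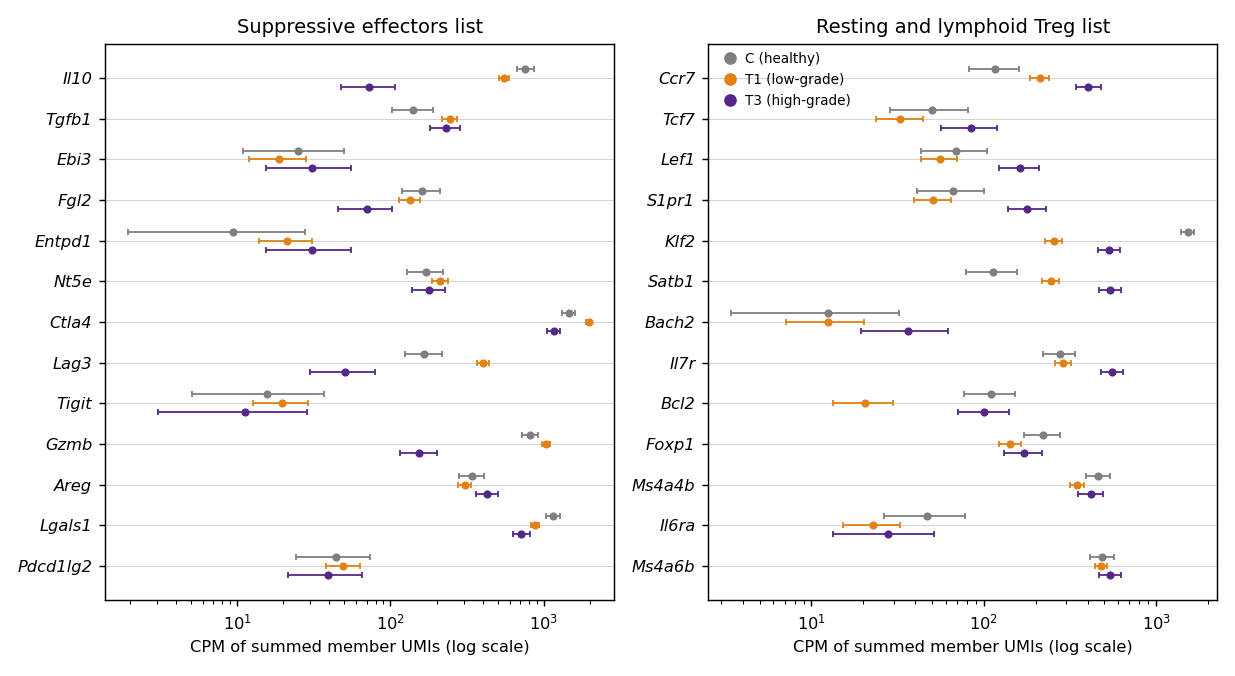
CPM of summed member UMIs, on a log scale, for genes with at least 30 UMIs over the 3 libraries in the suppressive effector list (left) and in the resting and lymphoid list (right); the 3 points of a gene are C, T1 and T3 from top to bottom, and bars are exact 95% Poisson intervals. Il10, Gzmb and Lag3 are lowest in T3 (72.6, 154 and 50.3 CPM), and Klf2 is lowest in T1 (255 CPM).

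In T3 the members had much less Il10, Gzmb and Lag3 than those of C, together with more Il1rl1, Satb1, Ccr7 and Stat5a. Over all 3016 measured genes, 164 (5.44%) were higher and 112 (3.71%) lower, with a median log2 ratio of 0.01. This comparison shares library C with that of T1, so the values stand side by side and are not independent. Il10 stood at 72.6 CPM in T3 against 759 CPM in C, a log2 ratio of -3.39 [-4.03, -2.80], with a UMI in 6 of 74 T3 members against 20 of 55 C members. Gzmb stood at 154 CPM in T3 against 812 CPM in C, or -2.40 [-2.85, -1.98], in 16 of 74 against 22 of 55 members. Lag3 stood at 50.3 CPM in T3 against 166 CPM in C, or -1.73 [-2.58, -0.93]. Fgl2, a secreted fibrinogen-like inhibitor, was the fourth of the 9 measured suppressive effectors that were lower, by -1.20 [-1.95, -0.48], and none of the 9 was higher.

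The low shares in T3 held at equal depth. With each member drawn down to 1000 UMIs, Il10 was found in 4.48% [0.933, 12.5] of T3 members (3 of 67) against 27.8% [16.5, 41.6] of C members (15 of 54), and in 27.1% [21.3, 33.7] of T1 members (57 of 210). The full-depth shares were 8.11% in T3 against 36.4% in C, and 50.7% in T1. Gzmb was found in 5.97% of drawn-down T3 members against 27.8% of C members, and in 35.2% of T1 members. B barcodes drawn down likewise held Il10 in 0.170% in T3, 0.289% in T1 and in 0 of 2291 in C (upper bound 0.161%), with median depths of 3945, 5219.5 and 4785 UMIs before. In other CD3+ barcodes, where 4.12% of 10424 measured genes were higher and 10.4% lower, the log2 ratios of T3 over C were -1.54 for Il10, -4.93 for Gzmb and -2.44 for Lag3, so lower levels of the 3 genes were not particular to the members. Il10 was lower in the members by -1.85 [-2.80, -0.90] more than in the others, and Gzmb by less, with a difference of 2.52 [1.97, 3.08].

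Not all suppressive genes were low in T3. Ctla4 stood at 1159 CPM in T3 against 1452 CPM in C, Areg at 427 against 339 CPM, Nt5e, the ecto-enzyme CD73, at 179 against 169 CPM, and Tgfb1 at 229 against 141 CPM, and none of them was called. In the identity list 2 of 15 measured genes were higher and none lower. They were Ikzf4, which encodes the Ikaros-family factor Eos (97.7 CPM in T3 against 28.2 CPM in C, log2 ratio 1.79 [0.71, 3.03]), and Lrrc32, the carrier GARP that holds latent TGF-beta on the cell surface (112 against 40.8 CPM, 1.45 [0.52, 2.48]). Ikzf2 itself, at 1106 CPM in T3 against 561 CPM in C, came to 0.98 [0.72, 1.24], just under the 2-fold limit, while other CD3+ barcodes had -2.61. By cells it was not more frequent, with a UMI in 47 of 74 T3 members (63.5% [51.5, 74.4]) against 40 of 55 C members (72.7% [59.0, 83.9]).

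Effector and tissue genes were higher in 6 of 21 measured cases in T3, and none was lower. Il1rl1, the ST2 receptor, had 249 CPM in T3 against 50.2 CPM in C, a log2 ratio of 2.31 [1.53, 3.18], where other CD3+ barcodes had -1.66. By cells it was found in 17 of 74 T3 members (23.0% [14.0, 34.2]) against 9 of 55 C members (16.4% [7.77, 28.8]), and these intervals overlap. Tnfrsf9, the costimulatory receptor 4-1BB, had 595 CPM in T3 against 179 CPM in C, or 1.73 [1.31, 2.18], where the others had -0.61. Rora had 707 against 270 CPM (1.39), and Id2, an inhibitor of E-protein transcription factors, 723 against 314 CPM (1.21). Il18r1, a chain of the IL-18 receptor, reached 1.36 and Rbpj, the transcription factor of the Notch pathway, 1.05. In other CD3+ barcodes Rora (-0.09) and Id2 (-0.83) lay below 0 as well, and the plot of both sets of ratios shows both populations. The members exceeded the others by 3.97 [3.0, 4.94] for Il1rl1 and by 2.34 [1.83, 2.86] for Tnfrsf9. In the others, genes of CD8, gamma-delta and cytotoxic T cells were lower in T3 over C in 8 of 9 measured cases. Their median was -2.90, and 10.4% of all measured genes were lower there. The part of a changed mix of cells in the ratios of the others was not tested. With each cell given equal weight, Id2 (0.85), Il18r1 (0.92) and Rbpj (0.08) no longer met the rule.

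**Figure D3:**
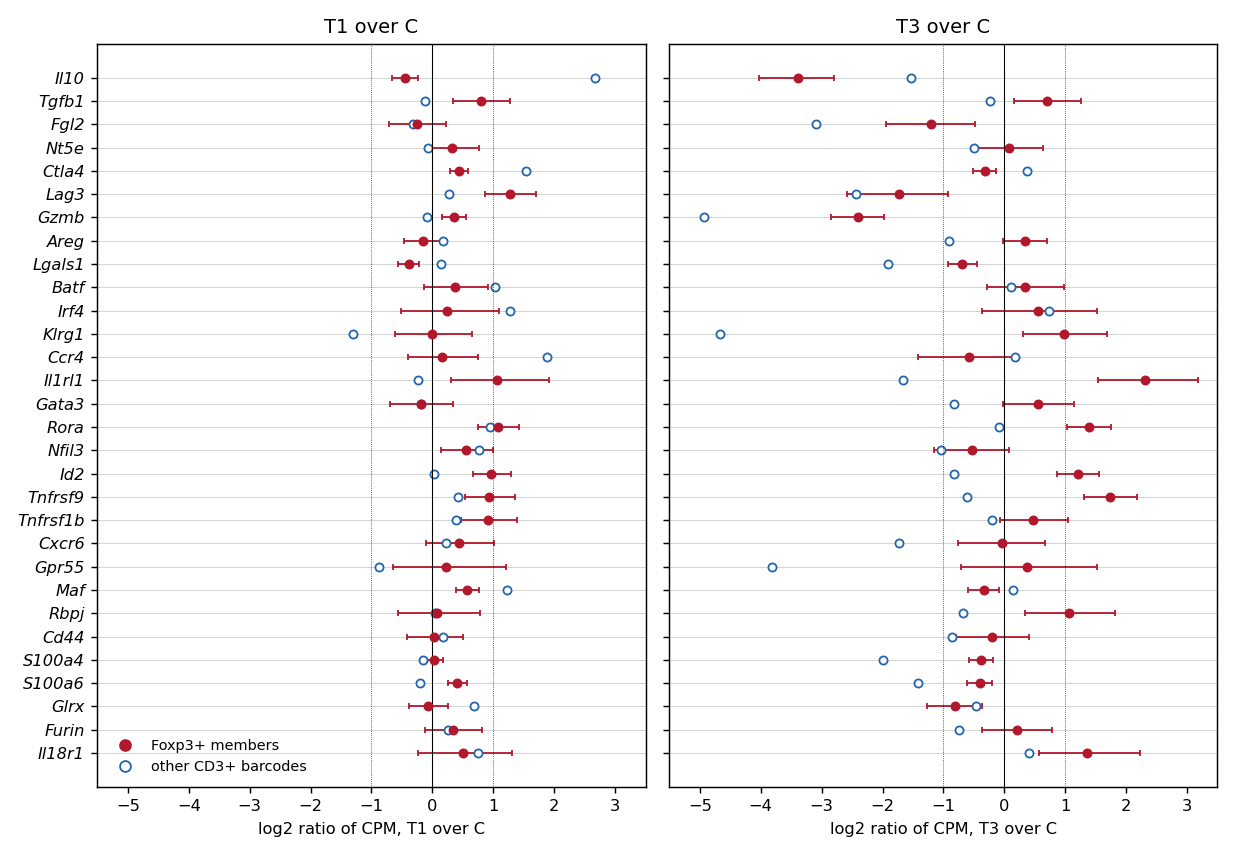
Log2 ratios of CPM, T1 over C (left) and T3 over C (right), for all genes of the suppressive effector and the effector and tissue lists that were measured in both comparisons; filled points with exact 95% counting intervals are the Foxp3+ members, open points are the other CD3+ barcodes, and dotted lines mark 2-fold. In T3, Il1rl1 (2.31 in members, -1.66 in others) and Tnfrsf9 (1.73 and -0.61) lie on opposite sides of 0, while Il10 (-3.39 and -1.54) and Gzmb (-2.40 and -4.93) lie on the same side.

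Genes of resting and lymphoid cells were higher in 5 of 12 measured cases in T3 and lower in 1. Satb1, a chromatin organiser of naive and regulatory T cells, had 542 CPM in T3 against 113 CPM in C, a log2 ratio of 2.26 [1.74, 2.82]. Ccr7, the receptor that guides cells to lymph nodes, had 405 against 116 CPM, or 1.8 [1.27, 2.37], and S1pr1, the receptor for exit into the circulation, 179 against 65.9 CPM, or 1.44 [0.71, 2.23]. Lef1 reached 1.23 and Il7r 1.01, whereas Klf2 was lower at 533 CPM in T3 against 1524 CPM in C, or -1.51 [-1.76, -1.27]. Other CD3+ barcodes of T3 had similar ratios, 2.26 for Satb1, 1.62 for Ccr7 and 1.54 for S1pr1. The haemoglobin UMIs moved with this library. In the 18 T3 members without any, Satb1 was higher by 1.71, Ccr7 by 1.51 and S1pr1 by 1.20, Il10 was lower by -4.62 and Gzmb by -1.90, while Lef1 (0.71), Il7r (0.65), Fgl2 (-0.50) and Stat5b (0.13) were no longer called. The ratio of Il10 in these 18 members rests on very few UMIs at most, so its size is uncertain.

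The signalling genes Stat5a (176 CPM in T3 against 28.2 CPM in C, log2 ratio 2.64 [1.62, 3.83]), Stat5b (1.19), Socs3 (1.72), Stat3 (1.65), Il6st (1.64), which encodes the shared chain gp130, and Rel (1.29), an NF-kappaB subunit, were higher in T3. Most genes of their lists were not called. Over the IL-2 and STAT5 list 3 of 13 measured genes were higher and none lower, with a median of 0.11. Over the TNF receptor and NF-kappaB list 2 of 15 were higher and none lower, with a median of 0.45, where 5.44% of all measured genes were higher. Jun was lower at 614 CPM in T3 against 2428 CPM in C, or -1.98 [-2.20, -1.76], and 7 of 14 measured immediate early genes were lower, beside -2.21 for Jun in other CD3+ barcodes. No heat shock gene was called among 11. Nr4a1, a factor induced by T-cell receptor signals, was lower by -1.42, while its relative Nr4a3 was higher by 1.73.

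T3 and T1, the pair of libraries with the same AOM and DSS course, were compared next. Of 5419 measured genes 194 (3.58%) were higher and 188 (3.47%) lower in T3, with a median log2 ratio of -0.02. Il10 stood at 72.6 CPM in T3 against 553 CPM in T1, a log2 ratio of -2.93 [-3.55, -2.36]. Gzmb stood at 154 against 1035 CPM (-2.75) and Lag3 at 50.3 against 400 CPM (-2.99), the 3 genes called lower among 12 measured suppressive effectors (median -0.31). In other CD3+ barcodes 10 of 14 were lower, with a median of -1.43, and Il10 had -4.21, Gzmb -4.84 and Lag3 -2.72. In the type 17 list 3 of 10 measured genes were lower in T3 than in T1 and 1 was higher, with a median of -0.78. In other CD3+ barcodes 8 of 12 were lower and none was higher. The gene called higher in the members was Il22, whose direction turned without the deepest members. Il1r1, an IL-1 receptor of that list, was found in 2 of 74 T3 members against 40 of 213 T1 members. It had 3 UMIs in T3 and a log2 ratio of -2.60 [-4.92, -0.99]. The chemokine receptor gene Ccr2 (352 CPM in T3 against 805 CPM in T1, -1.19) was lower as well, and other CD3+ barcodes had -2.12 for Il1r1 and -2.92 for Ccr2.

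Resting and lymphoid genes were higher in T3 than in T1 in 7 of 13 measured cases, with a median of 1.07, and none was lower. In other CD3+ barcodes 5 of 17 were higher, with a median of 0.82, and S1pr1 had 0.90, Tcf7 0.38, Klf2 -0.20 and Bcl2 -0.41. Bcl2 had 101 CPM in T3 against 20.3 CPM in T1, a log2 ratio of 2.31 [1.54, 3.09], S1pr1 179 against 50.8 CPM, or 1.81, and Tcf7, a factor of naive and memory cells, 83.8 against 32.8 CPM, or 1.35. Klf2 had 533 CPM in T3 against 255 CPM in T1, or 1.07 [0.80, 1.33]. This depended on the T3 members with haemoglobin: without them Klf2 had a ratio of -0.22, and Bcl2 (1.03) was no longer called. With barcodes holding Cd79a or Ms4a1 kept, Klf2 came to 0.68. Nrp1, a surface receptor of thymus-derived regulatory T cells, was found in 13 of 74 T3 members against 15 of 213 T1 members, with a ratio of 1.70 [0.75, 2.64], and Ikzf2 came to 0.96 [0.78, 1.14]. By cells Ikzf2 was found in 63.5% [51.5, 74.4] of T3 members and 59.6% [52.7, 66.3] of T1 members, intervals that overlap. Interferon-stimulated genes were lower in T3 in 6 of 15 cases and higher in 1. Among them were the GTPase genes Iigp1, with 1 UMI in T3 against 81 in T1 (-4.50 [-9.82, -1.98]), and Gbp2 (-1.45), while in other CD3+ barcodes Iigp1 had 0.09 and Gbp2 -0.23. Of 10197 genes measured in those barcodes, 3.06% were called higher in T3 over T1 and 6.18% were called lower.

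The members of T1, the largest group, were not alike. An Il10 UMI was found in 108 of the 213, at a median depth of 6232.5 UMIs in members with it and 4981 in those without. Apart from Il10, 162 of 4643 measured genes (3.49%) were higher and 98 (2.11%) lower in the members with it. Lag3 had 638 CPM in members with Il10 against 114 CPM in those without (log2 ratio 2.49), Gzmb 1538 against 429 CPM (1.84), and Havcr2, the inhibitory receptor TIM-3, 114 against 32.8 CPM (1.8). Maf, a transcription factor that acts on the Il10 gene, had 1678 against 803 CPM (1.06). On the other side Ccr7 (-2.11), Lef1 (-1.94), Klf2 (-1.89), Gata3 (-1.51), Il1rl1 (-1.45) and Ikzf2 (-1.40) were lower in members with Il10. By cells the split for Ikzf2 was small: it was found in 60 of 108 members with Il10 and 67 of 105 without, and Il10 in 47.2% [38.3, 56.3] of T1 members with Ikzf2 and 55.8% [44.7, 66.5] without, intervals that overlap. Il10 was found in 35.0% of C members with Ikzf2 and 40.0% without, and in 10.6% and 3.70% of those of T3.

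Ikzf2 was found in 127 of the 213 T1 members, at a median depth of 5645 UMIs in members with it and 6282 in those without, and 113 genes (2.43%) were higher and 59 (1.27%) lower in them. Il1rl1 had 172 CPM in members with Ikzf2 against 3.91 CPM in those without (log2 ratio 5.46), and 34 of the 36 members with Il1rl1 were among them. Klrg1, a receptor of differentiated effector cells, had 143 against 3.91 CPM (5.19), Areg 475 against 46.9 CPM (3.34), and Itgb8, an integrin chain that activates TGF-beta, 61.2 against 3.91 CPM (3.97). The 3.91 CPM of Il1rl1, Klrg1 and Itgb8 in members without Ikzf2 stands for very few UMIs, so the sizes of these ratios are uncertain. Furin, a protease, was lower at 124 CPM in members with Ikzf2 against 280 CPM in those without (-1.18). Ikzf4 (1.85) and Lrrc32 (1.10) were higher. MHC class II genes, Igkc and Il1b also differed in these splits and were concentrated in few cells, with Il1b found in 1 T1 member.

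**Figure D4:**
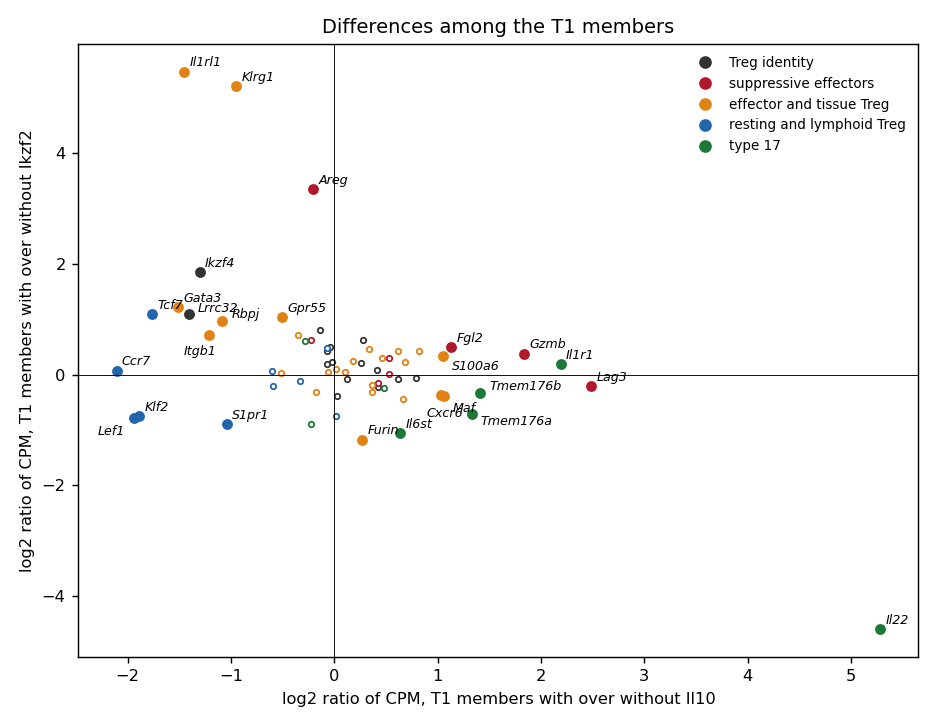
Each point is a measured gene of 5 lists in the 213 members of T1, placed by its log2 ratio of CPM in members with over without an Il10 UMI (horizontal) and with over without an Ikzf2 UMI (vertical); named filled points passed the size rule in at least 1 split. Il1rl1, Klrg1 and Areg lie at the top (5.46, 5.19 and 3.34), Lag3 and Gzmb at the right (2.49 and 1.84), and Ccr7, Lef1 and Klf2 at the left; most Il22 UMIs came from 1 cell.

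Pairs of genes found in 1 cell were counted in all libraries. Il10 was found in 79 of 109 T1 members with Gzmb against 29 of 104 without it, in 14 of 22 against 6 of 33 in C, and in 3 of 16 against 3 of 58 in T3. Areg was found in 25 of 36 T1 members with Il1rl1 against 39 of 177 without it, in 5 of 9 against 11 of 46 in C, and in 9 of 17 against 14 of 57 in T3. Ikzf2 was found in 54 of 64 T1 members with Areg against 73 of 149 without, in 15 of 16 against 25 of 39 in C, and in 17 of 23 against 30 of 51 in T3. The intervals of each of these pairs of shares were apart in T1, those for Il10 by Gzmb were apart in C and overlapped in T3, and those for Areg by Il1rl1 and Ikzf2 by Areg overlapped in C and T3. The part of depth per cell in these shares was not tested.

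**Figure D5:**
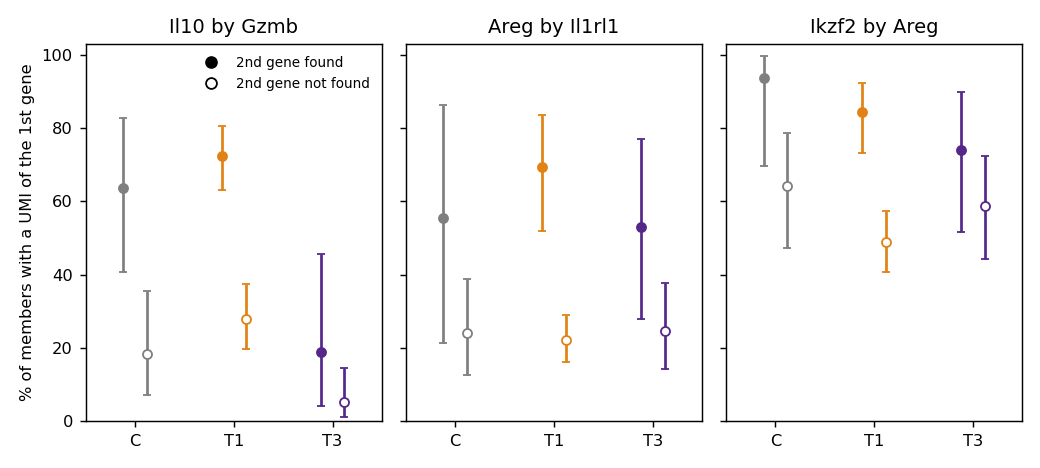
Percent of members in C, T1 and T3 that held a UMI of the first gene named in each panel, among members with (filled) and without (open) a UMI of the second gene; bars are exact 95% binomial intervals. In T1, Il10 was found in 72.5% of members with Gzmb and 27.9% without, and Areg in 69.4% of members with Il1rl1 and 22.0% without.

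The largest ratios by the naming rule were partly the work of few cells. Penk, the precursor of enkephalin peptides, had 517 CPM in T3 and 58.6 CPM in T1 against 6.27 CPM in C, with log2 ratios over C of 6.36 [4.49, 9.42] in T3 and 3.22 [1.32, 6.30] in T1. It was found in 8 members of T3, of which 1 held 61.6% of the UMIs, in 14 of T1 and in 1 of C. In T1 13 of those 14 were members without Il10. Its ratio of T1 over C was 0.39 with barcodes holding Cd79a or Ms4a1 kept, and its ratio of T3 over T1, 3.14 in all members, was -0.91 without the T3 members that held haemoglobin. Mt1, a metallothionein, had 249 CPM in T3 (7 members, 1 with 55.1% of the UMIs) and 46.9 CPM in T1 (21 members) against 1 UMI in C. Tff1, a trefoil peptide of mucous epithelium, had 226 CPM in T3 (7 members) and 65.7 CPM in T1 (17 members) against 2 UMIs in C, and it was higher in members than in other CD3+ barcodes by a log2 ratio of 7.83 in T3 and 6.70 in T1. Fas, the death receptor, had 83.8 CPM in T3 against 15.7 CPM in C (2.42), and Ttn, the muscle protein titin, 226 against 34.5 CPM (2.71).

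Among the lower genes, Mcpt1, a mast cell protease, and the chemokine genes Ccl4 and Ccl5 had 98.5%, 92.5% and 80.7% of their C UMIs in 1 member each, so their ratios describe those cells. Rcbtb2 was spread more evenly: it stood at 5.59 CPM in T3 (2 of 74 members) against 126 CPM in C (19 of 55), a log2 ratio of -4.49 [-7.58, -2.54], and at 126 CPM in T1 (73 of 213). Lmna, which encodes lamin A, had 39.1 CPM in T3 and 75.1 CPM in T1 against 254 CPM in C, or -2.70 and -1.76, and other CD3+ barcodes gave -2.82 and -0.72. Tpm3-rs7, at 190 CPM in T3 against 9.41 CPM in C (4.34), is a near copy of the tropomyosin gene Tpm3, so its counts are uncertain, and it was higher by 3.81 in other CD3+ barcodes of T3 as well.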

How the data were processed

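The deposited files hold raw counts, that is whole UMIs per gene and barcode from 10x 3' libraries, which per the file headers are gene, barcode and matrix files. CASAVA 1.8, Cell Ranger 3.1.0 and Seurat 3.1.4 are named in the submitters' processing notes, with no statement of their role. The authors' cell annotation was not used here. Of 30905 genes in the files, 30766 gene IDs matched a GENCODE symbol.

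Barcodes with at least 200 genes and at most 20% mitochondrial UMIs were kept, the Foxp3 rule was applied, and member UMIs were summed per library and divided by their total. The 95% intervals of ratios are exact conditional intervals on the 2 counts, those of shares are exact Clopper-Pearson intervals, and those of a difference of ratios need at least 5 UMIs in each group. A gene was measured with at least 30 UMIs over both libraries and called at a 2-fold difference with an interval that excluded none. A gene at 0 UMIs was set to a floor of 3 counts per library. Each group is 1 library, so there is no test. The size rule was also run on simulated counts with known folds, drawn with counting error only. Those counts hold no variation between cells or between libraries, so that run does not bear on calls that rest on few cells. Python 3.11.15 with numpy 2.4.6, scipy 1.17.1, pandas 2.3.3 and matplotlib 3.10.9 was used.

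Genes were named from 27 lists and, beside them, as up to 10 genes in each direction against C and 5 in T3 against T1, by absolute log2 ratio among called genes with a UMI in at least 5 members of the higher library. For members against other CD3+ barcodes up to 10 genes higher in all 3 libraries were taken by their smallest ratio. Left out were mitochondrial, ribosomal, receptor segment and predicted genes, genes of the Foxp3 rule, and genes whose CPM in members was under 20% of that in barcodes of other lineages. The members and the lists were chosen with earlier results of these data known. Alternatives changed the limits on genes, mitochondrial UMIs and Foxp3 UMIs, the members included, depth, weighting of cells, the total, and the UMI minimum. Keeping barcodes with Cd79a or Ms4a1, and leaving out members with over 1% immunoglobulin or haemoglobin UMIs, were added after seeing the data. Results for a few genes are not reported here, and the plots leave those genes out.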

Additional observations from a re-analysis of the deposited data

Results flagged for a closer look

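Lag3 moved in opposite directions against C in the members of both AOM/DSS libraries, with a log2 ratio of 1.27 in T1 over C and of -1.73 in T3 over C. The immunoglobulin heavy chain gene Igha did likewise, with 1.25 in T1 over C and -3.12 in T3 over C. The value for Igha in T1 over C was -0.97 with barcodes holding Cd79a or Ms4a1 kept, and 0.40 without members holding other lineage markers, so its direction in T1 depended on which barcodes were members. The difference between the contrasts was not tested, since each group is 1 library and both contrasts share C.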

How the results depend on the processing

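No paired analysis was possible because each group is 1 library. The precision rests on few cells, 55 in C and 74 in T3, and genes with few UMIs could not be measured. The cause of each change below was not tested.

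The members' percent of CD3+ barcodes moved to 1.73 (C), 8.18 (T1) and 2.07 (T3) with at least 2 Foxp3 UMIs, and to 1.64, 5.0 and 1.82 with the rule applied after drawing down to 1000 UMIs. With Cd79a or Ms4a1 barcodes kept it was 2.23 in C. Without members holding other lineage markers it was 8.98 in T1 and 2.73 in T3, and without those holding haemoglobin 0.847 in T3. In both of the last settings the holders were taken out of the members but not out of the CD3+ barcodes. The percent could therefore only fall, and it is not a share among CD3+ barcodes filtered alike. T1 had the highest percent under every setting of this paragraph.

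Counts of called genes (higher, then lower) were 50 and 25 in T1 over C, 29 and 24 in T3 over C and 30 and 67 in T3 over T1 with members drawn down to 1000 UMIs. With a minimum of 100 UMIs they were 56 and 23, 37 and 19, and 47 and 64. Without a minimum, 294 were lower in T1 over C, 298 higher and 291 lower in T3 over C, and 410 higher in T3 over T1. With cells weighted equally, 271 were higher in T1 over C, 197 lower in T3 over C and 429 lower in T3 over T1. With at least 2 Foxp3 UMIs 71 were lower in T3 over C. Without haemoglobin holders 101 were higher in T3 over C and 107 lower in T3 over T1. With Cd79a or Ms4a1 barcodes kept 294 were higher in T3 over T1. Against other CD3+ barcodes with Cd4, 106 were lower in C and 237 in T1, and with a minimum of 100 UMIs 484 were higher in T1.

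Among the listed and named genes, more calls were lost than turned. With members drawn down to 1000 UMIs, 36 called genes of T1 over C, 42 of T3 over C and 35 of T3 over T1 were no longer measured. A further 11, 5 and 7 no longer met the rule, and 8, 5 and 10 met it newly. Without haemoglobin holders 8 calls of T3 over C and 19 of T3 over T1 no longer met the rule. In that setting 18 and 8 called genes were not measured, and 21 and 15 genes met the rule newly. Directions turned for few genes. In T1 over C, Ccl4 came to 2.35 with at least 2 Foxp3 UMIs and 1.09 without members holding other lineage markers, Ccl5 to 0.66 without the deepest members, and Jchain to -2.04 and Igha to -0.97 with Cd79a or Ms4a1 barcodes kept. H2-Aa came to -0.23 without the deepest members, -0.066 without other lineage markers and -0.19 without members rich in immunoglobulin or haemoglobin, H2-Ab1 to -0.16 and H2-Eb1 to -0.021 without other lineage markers. In T3 over T1, Il22 came to -3.73 and H2-Eb1 to 0.13 without the deepest members, H2-Eb1 to 0.21, H2-Ab1 to 0.028 and Il1b to 2.34 with cells weighted equally, and Penk to -0.91 and Klf2 to -0.22 without haemoglobin holders.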
